A study of Caenorhabditis elegans with 2 samples.

Results

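Ubiquitin conjugation, cullin and deubiquitinase genes were followed in heat-stressed *Caenorhabditis elegans* with and without the p38 mitogen-activated protein kinase PMK-1. The genes were taken by symbol alone (uba-, ubc-, ubq-, ubl-, uev-, cul-, skr-, rbx-, csn-, usp- and otub-). That rule used no values, but the members were chosen with earlier results of these data known. Of 78 annotated genes with such a symbol, 55 had reads in at least 1 library, of 8733 genes with reads in all. Whole young adults of the wild type N2 Bristol were compared with those of strain KU25, a deletion mutant with the allele pmk-1(km25). Both populations were grown at 20 °C on *Escherichia coli* OP50 and then kept at 35 °C for 5 h, so heat is shared by both groups and unheated worms were not analysed here. Each genotype gave 1 library of mRNA sequences, with 5.78 M uniquely mapped reads for the wild type and 5.23 M for the mutant. There is therefore no replicate error and no test of genotype, and every value describes these 2 libraries. The transcript of pmk-1 was not analysed here, which leaves the allele unchecked at the RNA level.

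Ubiquitin is a small protein that cells attach to other proteins, most often to mark them for the proteasome. An activating enzyme (E1) passes ubiquitin to a conjugating enzyme (E2), and a ligase (E3) brings the E2 to its target. In the largest ligase family a cullin holds a RING-box protein at its catalytic end and an adaptor such as an SKP1-related protein at the other. The ubiquitin-like protein NEDD8 activates cullins and the COP9 signalosome removes it, while deubiquitinases cut ubiquitin off again. Heat unfolds proteins and raises the demand on this system. In *C. elegans* the ubiquitin system also drives oocyte maturation, the oocyte-to-embryo transition and the cell cycle of the germline.

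For each gene the ratio of CPM (reads scaled to the library total, mutant over wild type) is given with its exact 95% conditional binomial interval. The interval covers counting error only. To be called higher or lower, a gene needed 50 reads or more in either library, the stated fold and an interval that excluded 1. Of the 55 genes, 45 had at least 50 reads in a library. Among these, 42 passed in both libraries, skr-7 passed through its wild-type reads alone, and skr-4 and skr-20 passed through their mutant reads alone.

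As a set, the 45 genes lay close to the rest of the transcriptome, slightly on the lower side, with few large differences. Their median log2 ratio was -0.43, against -0.34 for the 5198 genes of the transcriptome at the same read level, a distance of -0.10. With no filter on low counts the median of the 55 genes was -0.41 and that of all genes 0.01, so the distance became -0.42. None was at least 2-fold lower, where 1.75% of all genes were, and 2 were at least 2-fold higher, where 17.6% of all genes were. Those 2, skr-4 and skr-20, reached 50 reads in the mutant only, so they carry no weight as a count. The share of all genes has the same limit, since 599 of the 5198 reached the level in the mutant only. Of all genes with at least 200 reads over both libraries, 11.5% were at least 2-fold higher. At 1.5-fold, 11 of the 45 genes were lower, a share of 24.4% beside 27.6% of all genes, and the same 2 genes were higher, where 25% of all genes were. Among all genes with 200 reads or more over both libraries, the share at least 1.5-fold lower was between 27.2% and 37.9% in 3 classes of read number. The log2 ratio was below 0 for 36 of the 45, beside 64.3% of all genes, and below the median of all genes for 28 of them, beside 50% of all genes. The middle 50% of the set spanned log2 ratios from -0.56 to -0.19, against -0.61 to 0.58 for all genes. Every direction given here is relative to library totals. With the libraries scaled on oogenic germline markers instead, 44 of the 45 log2 ratios lay above 0 (all but skr-17), and with scaling on body tissue markers 44 lay below 0 (all but skr-20). The distance of a gene or group from the median of all genes does not move with the scaling, and group medians are given on that scale as well. Pooled over all 55, the reads took 1.01% of the wild-type library and 0.794% of the mutant library.

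**Figure D1:**
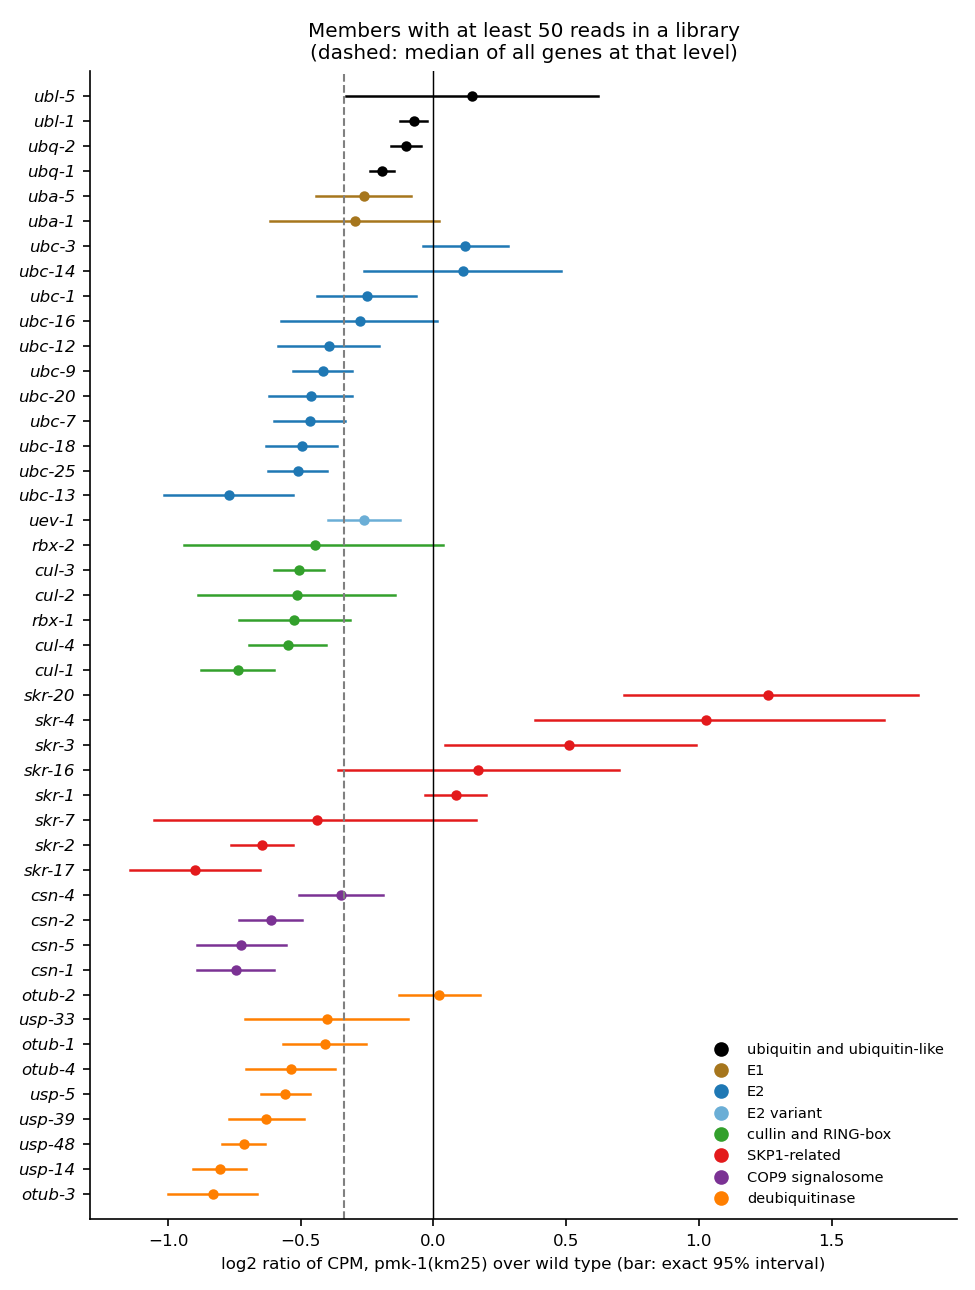
Log2 ratio of CPM (mutant over wild type, scaled to library totals, x axis) of the 45 genes that passed the level of 50 reads, ordered by role and coloured by it, with exact 95% intervals as bars and 1 library per genotype. Most points lie between -1 and 0 around the dashed median of all genes (-0.34), the ubiquitin genes lie near 0, and the SKP1-related genes run from -0.89 to 1.25.

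The genes that encode ubiquitin itself were abundant and nearly level between the libraries. ubq-2 (ZK1010.1), which encodes ubiquitin fused to a protein of the large ribosomal subunit, had an RPKM (reads per coding length, scaled to the library total) of 2414 (wild type) and 2246 (mutant). With 5404 reads against 4547 it was 1.07-fold lower in the mutant (interval 1.03 to 1.12). ubl-1 (H06I04.4a), a ubiquitin-like protein fused to a small-subunit ribosomal protein, had RPKM values of 2251 and 2137. Its 6407 reads against 5500 made it 1.05-fold lower (1.02 to 1.09). These were the highest levels per length of the 55 genes, at ranks 73 and 77 of all genes in the wild type and 87 and 93 in the mutant.

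The polyubiquitin gene ubq-1 (F25B5.4a), whose product is a chain of ubiquitin repeats that is cut into single units, held the most reads of the set. It gave 9605 reads against 7592, so it was 1.14-fold lower (1.11 to 1.18), with RPKM values of 660 and 577. Its reads covered 39.2% and 39.3% of the listed sequence, so the level per length is uncertain. ubl-5 (F46F11.4), known from the mitochondrial unfolded protein response, had 77 reads in each library and a log2 ratio of 0.15 with an interval that reached 1. All 4 of these genes lay above the median of all genes, with a median log2 ratio of -0.09, which is 0.25 above it. Pooled, ubq-1, ubq-2 and ubl-1 were 1.1-fold lower (1.08 to 1.12), while the reads of the other 52 genes together were 1.41-fold lower (1.38 to 1.43). The cytosolic ribosomal protein genes, whose proteins 2 of the ubiquitin genes are fused to, had a median of -0.15 over 71 genes.

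**Figure D2:**
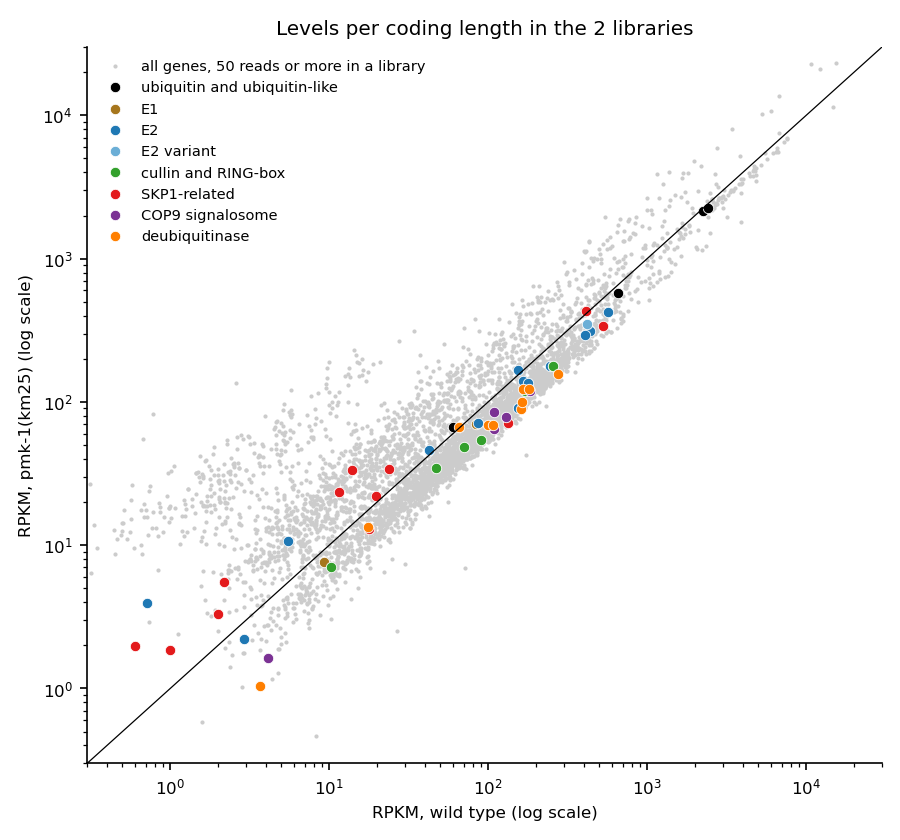
Deposited RPKM in the wild type (x axis) against the mutant (y axis), both on log scales, for the transcriptome (50 reads or more in either library) in grey and for members with reads in both libraries in colour by role; the line marks equal levels. Most coloured points lie just under the line, ubq-2 and ubl-1 lie near it at the top, and several SKP1-related genes at low levels lie above it.

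At the start of the cascade, neither E1 gene with reads differed by 1.5-fold. uba-1 (C47E12.5a), the activating enzyme of ubiquitin, gave 197 reads against 145 and was 1.23-fold lower with an interval that reached 1 (0.986 to 1.53). Those reads covered 2.96% and 2.93% of the listed sequence, so the value rests on a short stretch of the gene. uba-5 (T03F1.1), which activates the ubiquitin-like protein UFM1, had 609 against 459 reads and was 1.2-fold lower (1.06 to 1.36), with coverage of 99.8% and 99.9%. The other UFM1 genes had ratios of the same order, with ufc-1 and ufm-1 both at a log2 ratio of -0.13 and both intervals reaching 1. uba-2, of the SUMO pathway, had no ID listed in either library.

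Of the 14 E2 genes with reads, 11 had at least 50 in a library, and their median log2 ratio was -0.42, or -0.08 relative to all genes. Of these 11, 1 was at least 1.5-fold lower (beside 27.6% of all genes) and none was higher by that fold (beside 25%). That gene, ubc-13 (Y54G2A.31), works with an E2 variant to build chains that do not serve as a signal for the proteasome. It gave 409 wild-type and 217 mutant reads and was 1.7-fold lower (1.44 to 2.02). The partner gene uev-1 (F39B2.2) gave 1021 reads against 770 and was 1.2-fold lower (1.09 to 1.32), so the intervals of the 2 genes did not overlap. This difference between genes was not tested.

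Among the E2 genes chosen by symbol, those with the highest level per length were ubc-9, ubc-18 and ubc-7. ubc-9 (F29B9.6), the conjugating enzyme of SUMO, had RPKM values of 568 and 425 and was 1.33-fold lower (1.24 to 1.44; 1646 against 1115 reads). ubc-18 (R01H2.6), the worm homolog of human UBCH7, had RPKM values of 437 and 310 and was 1.41-fold lower (1.28 to 1.55). ubc-7 (F58A4.10) had RPKM values of 405 and 294 and was 1.38-fold lower (1.26 to 1.52). These 3 genes thus differed little from each other in ratio, and the intervals overlapped.

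ubc-25 (F25H2.8) had the second lowest ratio of the E2 genes, with 1710 reads against 1085, 1.43-fold lower (1.32 to 1.54). ubc-12 (R09B3.4), which carries NEDD8 to cullins, was 1.32-fold lower (1.15 to 1.5), and ubc-20 (F40G9.3) was 1.38-fold lower (1.24 to 1.54). ubc-1 (C35B1.1), the homolog of yeast RAD6, gave 557 reads against 423 and was 1.19-fold lower (1.05 to 1.35). For ubc-16 (228 against 170 reads) the interval reached 1.

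Against this run of lower values, ubc-3 and ubc-14 had slightly higher CPM in the mutant, with intervals that reached 1. ubc-3 (Y71G12B.15), a homolog of the yeast CDC34 that works with cullin ligases, had 654 reads against 643, a ratio of 1.09 (0.974 to 1.21). ubc-14 (Y87G2A.9) had 126 against 123, a ratio of 1.08 (0.835 to 1.4). let-70, an E2 gene that also serves cullin ligases but has another kind of symbol, had 3571 reads against 3023 and a log2 ratio of -0.10. Its RPKM values of 1390 and 1302 were above those of every E2 gene chosen by symbol.

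The remaining E2 genes had few reads. ubc-19 (Y69H2.6) had 28 reads against 49, just under the level of 50, with a ratio of 1.94 (1.19 to 3.2). ubc-24 (F49E12.4) had 2 against 10, a ratio of 5.53 with a wide interval of 1.18 to 51.9. ubc-6 (D1022.1a), an E2 of the endoplasmic reticulum, had 16 against 11 reads over 8.99% and 8.68% of its listed sequence.

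The cullin and RING-box genes formed a tight group on the lower side. All 6 with reads had a log2 ratio below the median of all genes, from -0.74 to -0.44 with a median of -0.52, or -0.18 relative to all genes. That distance is not matched for read number. All genes with 1000 to 3000 reads over both libraries, as for cul-1 and cul-4, had a median of -0.51. It was -0.36 with 200 to 1000 reads (cul-2 and rbx-1), -0.29 with 3000 or more (cul-3) and 0.56 with 50 to 200 (rbx-2). The 0.56 is a weak reference, since that class takes in genes that passed the level through the mutant alone. cul-1 (D2045.6), the scaffold of SCF ligases (SKP1, cullin and F-box protein) and known as a brake on the cell cycle in the worm, had RPKM values of 90.3 (wild type) and 54.2 (mutant). With 1224 reads against 664 it was 1.67-fold lower (1.52 to 1.83). It was the 1 gene of the 6 at least 1.5-fold lower, a share of 16.7% beside 27.6% of all genes.

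cul-3 (Y108G3AL.1), whose ligase removes the katanin subunit MEI-1 after meiosis, had the highest level per length of the cullins, with RPKM values of 170 and 120. It gave 2295 reads against 1461 and was 1.42-fold lower (1.33 to 1.52). cul-4 (F45E12.3), which prevents DNA from being replicated again within a cycle, gave 1027 reads against 635 and was 1.46-fold lower (1.32 to 1.62). cul-2 (ZK520.4b), which acts in meiosis and in the polarity of the embryo, gave 161 reads against 102 and was 1.43-fold lower (1.11 to 1.85). The cul-2 reads covered 11.96% and 10.6% of the listed sequence, against at least 99% for the other 3 cullins in both libraries. The common RING-box gene rbx-1 (ZK287.5) was at about the same ratio, with RPKM values of 256 and 178 and 1.44-fold lower (1.25 to 1.66). rbx-2 (R10A10.2) had 92 reads against 61 and an interval that reached 1. Pooled over the 4 cullins, reads were 1.49-fold lower (1.42 to 1.56). cul-5 and cul-6 had no ID listed in either library.

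The adaptor genes of these ligases, taken from lists of other pathway genes, gave a wider spread. For SCF substrate adaptors, 3 of 5 were at least 1.5-fold lower (27.6% of all genes) and none higher (25% of all genes), with a median of -0.61. Among them, the F-box genes prom-1 (870 against 469 reads, 1.68-fold, 1.5 to 1.88) and fsn-1 (657 against 390, 1.52-fold, 1.34 to 1.73) were lower. sel-10 was 1.64-fold lower (1.08 to 2.52), from reads over 5.27% of its listed sequence in the wild type.

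For adaptors of CUL-2, CUL-3 and CUL-4, 6 of 16 were at least 1.5-fold lower, beside 27.6% of all genes, and the median was -0.49. The 2 that were at least 1.5-fold higher, kel-10 and kel-8, both reached the 50 reads in the mutant only, so they carry no weight as a count. The elongin B gene elb-1 gave 415 reads against 225 and was 1.67-fold lower (1.41 to 1.97). The kelch gene kel-10 stood apart with 20 reads against 279, 15.4-fold higher (9.8 to 25.7). kel-8, another kelch gene, had 47 against 72 reads, 1.69-fold higher (1.16 to 2.5). Of the NEDD8 genes, ula-1, a subunit of the NEDD8-activating enzyme, was 1.74-fold lower (1.55 to 1.96; 837 against 435 reads). ned-8 itself was 1.16-fold lower (1.01 to 1.32).

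The SKP1-related genes had the widest range of ratios of all roles. The 13 with reads spanned RPKM values from 0.296 to 529 in the wild type. Of 20 annotated genes of this name, 7 had no ID listed in either library. Among the 8 at the level, 2 (25%) were at least 1.5-fold lower (skr-2 and skr-17), beside 27.6% of all genes. Another 2 (25%) were at least 2-fold higher (skr-4 and skr-20), beside 17.6% of all genes. The median of the 8 was 0.13, or 0.46 relative to all genes, but it includes skr-4 and skr-20, which reached the 50 reads in the mutant only. With no filter it was 0.50 relative to all genes over the 13 genes, and with at least 200 reads over both libraries, which only skr-1, skr-2 and skr-17 had, it turned to -0.24.

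skr-1 (F46A9.5) and skr-2 (F46A9.4), the main SKP1 genes of the worm, are similar neighbours. The intervals of their ratios did not overlap, a difference that was not tested. skr-1 gave 1259 wild-type and 1206 mutant reads, a ratio of 1.06 (0.978 to 1.15). skr-2 had 1605 against 928 and was 1.56-fold lower (1.44 to 1.7). skr-2 was thus the higher of the pair per length in the wild type, with an RPKM of 529 against 410, and the lower in the mutant, with 338 against 434. Because only uniquely mapped reads were counted, the split between such similar genes is uncertain, although reads covered at least 98% of both sequences. Pooled over the pair, reads were 1.21-fold lower (1.15 to 1.28).

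skr-17 (C06A8.4) had the lowest ratio of all 45 genes, with 420 reads against 204 and RPKM values of 134 and 71.8. It was 1.86-fold lower (1.57 to 2.21). skr-20 (R12H7.5) had the highest ratio, with 42 reads against 91 and RPKM values of 13.9 and 33.3, 2.4-fold higher (1.65 to 3.54).

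skr-3, skr-4 and skr-5 are known as parts of a CUL-6 ligase that the worm makes in its response to intracellular pathogens and that raises heat tolerance. skr-3 (F44G3.6) gave 69 wild-type and 89 mutant reads, a ratio of 1.43 (1.03 to 1.98). skr-4 (Y60A3A.18) had 32 against 59, 2.04-fold higher (1.3 to 3.24). Both were low in either library, with RPKM values from 11.5 to 33.8, and skr-5 and cul-6 had no ID listed in either library.

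skr-16 (62 against 63 reads) and skr-7 (60 against 40) had intervals that reached 1. The other 5 genes were below the level. skr-15 had 7 reads against 16, skr-13 had 6 against 9, skr-12 had 3 against 5 and skr-10 had 2 against 6, all with intervals that reached 1. skr-8 had 1 read in the wild type and was not listed in the mutant, which a count of 0 allows to be up to 3 reads. Since skr-4 and skr-20 passed through the library where they were high, their calls carry no weight as a count. The 10 genes other than skr-1, skr-2 and skr-17, with no filter, had 284 reads against 378 in all, a pooled ratio of 1.47 (1.26 to 1.72). These 10 were picked out after their values were seen.

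**Figure D3:**
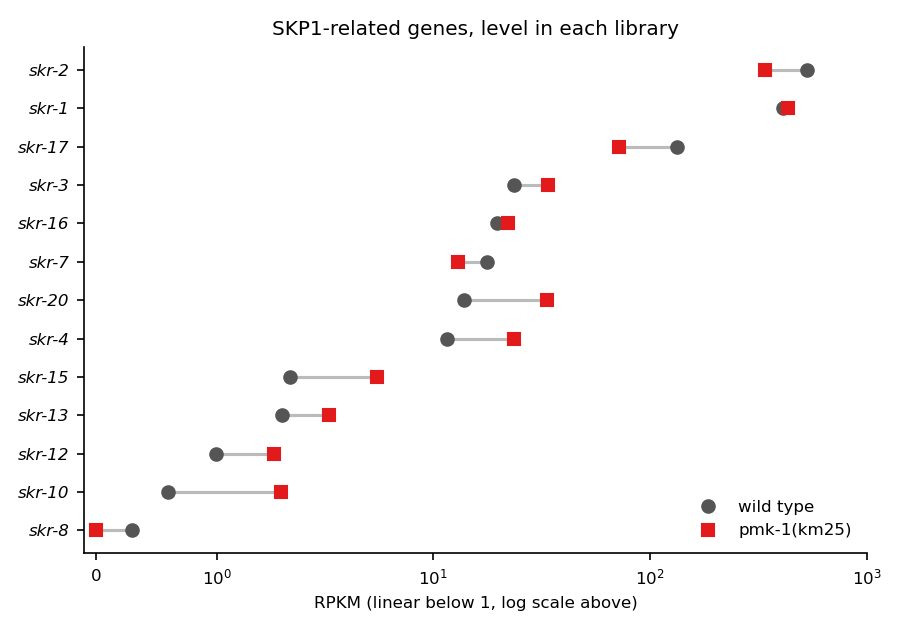
Deposited RPKM of the 13 SKP1-related genes with reads in the wild type (circles) and in the mutant (squares), on an axis that is linear below 1 and logarithmic above, ordered by the wild-type level. skr-2 and skr-17 lie lower in the mutant, skr-1 is nearly level, and skr-20, skr-4 and skr-3 lie higher at RPKM values between 11.5 and 33.8.

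The COP9 signalosome genes were lower in the mutant library. All 4 that passed the level were below the median of all genes, with a median log2 ratio at -0.67, a distance of -0.33 from all genes. At 1.5-fold, 3 of these 4 were lower, beside 27.6% of all genes. These 4 each had 1000 to 3000 reads over both libraries. In that class the median of all genes was -0.51, and 37.9% of all genes were at least 1.5-fold lower. csn-5 (B0547.1), the catalytic subunit that cuts NEDD8 from cullins, gave 829 reads against 454 and was 1.65-fold lower (1.47 to 1.86). csn-1 (Y59A8A.1) had 1131 against 610 and was 1.68-fold lower (1.52 to 1.85). csn-2 (B0025.2) had 1567 against 926 and was 1.53-fold lower (1.41 to 1.66). csn-4 (Y55F3AM.15) had the smallest difference of the 4, with 780 against 554 reads, 1.27-fold lower (1.14 to 1.42). Its interval overlapped that of csn-2, and differences between these genes were not tested.

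The RPKM values of these 4 subunit genes lay between 108 and 182 in the wild type and between 64.6 and 119 in the mutant, with csn-2 the highest in both. csn-6 (Y67H2A.6b), the partner of CSN-5 in the complex, had 41 reads against 12, below the level, and was 3.09-fold lower (1.59 to 6.46). Its reads covered 8.33% and 6.94% of the listed sequence. csn-3 had no ID listed in either library.

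Of 9 deubiquitinase genes at the level, 4 were at least 1.5-fold lower, where 27.6% of all genes were, and none was higher by that fold, where 25% were. Their median was -0.56, or -0.22 relative to all genes. By reads over both libraries, 37.9% of all genes with 1000 to 3000 were at least 1.5-fold lower, the class of usp-39 and the otub genes. The share was 28.9% with 3000 or more (usp-14, usp-48 and usp-5) and 27.2% with 200 to 1000 (usp-33). usp-14 (C13B4.2), which acts on ubiquitin chains at the proteasome, had RPKM values of 276 (wild type) and 158 (mutant). With 2343 reads against 1212 it was 1.75-fold lower (1.63 to 1.88). usp-48 (F30A10.10) had the most reads of the deubiquitinases, 3568 against 1965, and was 1.64-fold lower (1.55 to 1.74). usp-39 (F09D1.1), whose homologs are splicing factors that lack deubiquitinase activity, had 1119 against 654 and was 1.55-fold lower (1.4 to 1.71).

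usp-5 (T27A3.2), which takes apart free ubiquitin chains, gave 2488 reads against 1528 and was 1.47-fold lower (1.38 to 1.57). usp-33 (K09A9.4) had 219 against 150 and was 1.32-fold lower (1.07 to 1.64). usp-46 (R10E11.3a), known for keeping glutamate receptors from degradation in neurons, had 27 reads against 7, below the level, over 10.2% and 10.3% of its listed sequence.

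The 4 otub genes, which encode OTU-domain proteases, ranged from nearly level to lower in the mutant. otub-3 (F21D5.2) gave 860 reads against 437 and was 1.78-fold lower (1.58 to 2). otub-4 (B0546.2) was 1.45-fold lower (1.29 to 1.63) and otub-1 (C25D7.8), whose human homolog also binds E2 enzymes, was 1.33-fold lower (1.19 to 1.48). otub-2 (Y50C1A.1) was nearly level, with 734 against 674 reads and a ratio of 1.02 (0.913 to 1.13). Deubiquitinases outside these symbols had a median of -0.64, and 4 of 7 were at least 1.5-fold lower (27.6% of all genes). The lowest was duo-1, with 930 against 449 reads and 1.87-fold lower (1.67 to 2.1).

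Medians of the proteasome, the anaphase-promoting complex and the SUMO cycle also lay below that of all genes (-0.34), and the counts in these lists stand beside 27.6% of all genes at least 1.5-fold lower and 25% at least 1.5-fold higher. Of 31 proteasome subunit genes, 30 lay below the median of all genes, 12 were at least 1.5-fold lower and none was higher by that fold (median -0.56). The share of 38.7% lower stands beside 37.9% of all genes with 1000 to 3000 reads over both libraries and 28.9% of those with 3000 or more. Apart from rpn-6.1, the subunit genes at the level fell in these classes. The anaphase-promoting complex, a cullin-related ligase of mitosis and meiosis, had a median of -0.76 over 10 genes, 6 of them at least 1.5-fold lower, with apc-2 at 1.9-fold lower (1.71 to 2.13; 1010 against 480 reads). For the SUMO cycle, 2 of 5 were at least 1.5-fold lower (median -0.55), led by aos-1 at 1.71-fold (1.53 to 1.91).

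Of 16 HECT and RING ligase genes, 9 were at least 1.5-fold lower, beside 27.6% of all genes, and 1 at least 1.5-fold higher, beside 25% (median -0.62). lin-41, a regulator of oocyte growth, had 5592 against 2469 reads and was 2.05-fold lower (1.95 to 2.15), and siah-1 was 1.84-fold higher (1.4 to 2.43). Among 14 genes of CDC-48 and ubiquitin receptors (median -0.47), 5 were at least 1.5-fold lower, a share of 35.7% beside 27.6% of all genes. Only 1 was at least 2-fold higher, where 17.6% of all genes were. The ubiquitin segregase genes cdc-48.1 and cdc-48.2 were 1.72-fold (1.66 to 1.78) and 1.57-fold lower (1.51 to 1.63).

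Markers of tissues also differed between the libraries. In RNA of whole worms, fewer cells of a type and less RNA per cell cannot be told apart. Of 16 oogenic germline markers, 13 had reads. All 13 were at least 1.5-fold lower in the mutant (median -0.86), beside 27.6% of all genes. Their summed share was 1.82% of wild-type reads and 1.04% of mutant reads. Of 31 markers of muscle, intestine, neurons, hypodermis and pharynx, 26 had reads, which together took 0.812% of wild-type and 1.73% of mutant reads. At the level, 17 of 20 were 1.5-fold higher or more (median 1.25), beside 25% of all genes. However, 4 of the 20 (mec-17, mec-12, egl-3 and tnc-2) reached 50 reads in the mutant only. The hypodermis genes at the level split, with col-19 2.14-fold higher (2.1 to 2.19) and lin-26 1.86-fold lower (1.71 to 2.02). All 6 muscle genes with reads were at least 2-fold higher (median 1.25), beside 17.6% of all genes, and none of them passed through the mutant alone. The sperm markers with reads took 0.00294% and 0.0327% of reads, and 7 of the 8 at the level (median 3.77) passed it through the mutant alone. The log2 ratios of the oogenic markers ran from -1.01 to -0.73, while those of all 45 genes chosen by symbol ran from -0.89 to 1.25 (median -0.43). The part of tissue make-up in these ratios was not tested.

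**Figure D4:**
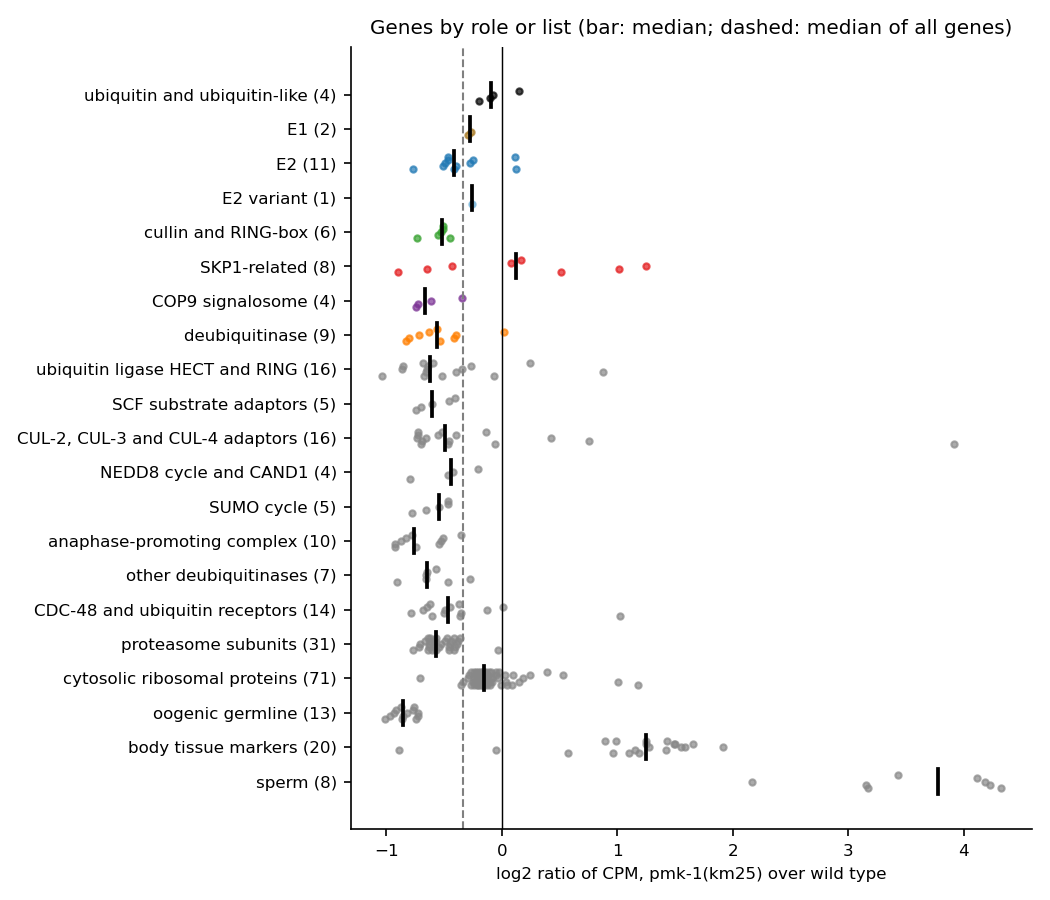
Log2 ratio of CPM (mutant over wild type, scaled to library totals, x axis) of each gene that passed the level of 50 reads, by role or list, with the number of genes in brackets, the list's median as a bar and the median of all genes (-0.34) as a dashed line. Most ubiquitin pathway medians lie between the oogenic germline (-0.86) and 0, apart from the SKP1-related genes (0.13), and body tissue (1.25) and sperm markers (3.77) lie to the right; these 3 medians include genes that passed the level through the mutant alone.

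The ratio moved with the level of a gene in the whole transcriptome as well. Every class here holds only genes that passed the level of 50 reads. Genes with 50 to 200 reads over both libraries had a median log2 ratio of 0.56 over all genes, and the 7 members among them had 0.17, with 5 of the 7 above 0. Of these 7, skr-4 and skr-20 passed through their mutant reads alone and skr-7 through its wild-type reads alone. Among all 5198 genes, 599 passed in the mutant only. The values of this lowest class thus cannot show that the ratio moved with the level. With 1000 to 3000 reads the median was -0.51 over all genes and -0.49 over 21 members, of which 7 were at least 1.5-fold lower, beside 37.9% of all genes at that level. With 3000 reads or more it was -0.29 over all genes and -0.51 over 7 members. The 3 ubiquitin genes ubq-1, ubq-2 and ubl-1 had the highest ratios of those 7, from -0.19 to -0.07, while 29.95% of all genes of that class lay above 0.

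Coverage set a limit on a few of these values. The 48 genes counted on an ID without an isoform letter had coverage of at least 84.8% (wild type) and 85.6% (mutant) where they passed the level. Of the 7 genes counted on an ID with such a letter, 6 (uba-1, ubc-6, cul-2, csn-6, usp-46 and ubq-1) had coverage under 50% in both libraries, and ubl-1 had 82.5% and 82.3%. Over all IDs with at least 50 reads in the wild type, the median coverage was 65.5% with a letter and 98.7% without. The cause of the low coverage was not tested, and ratios of those 6 genes describe a part of each sequence.

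**Figure D5:**
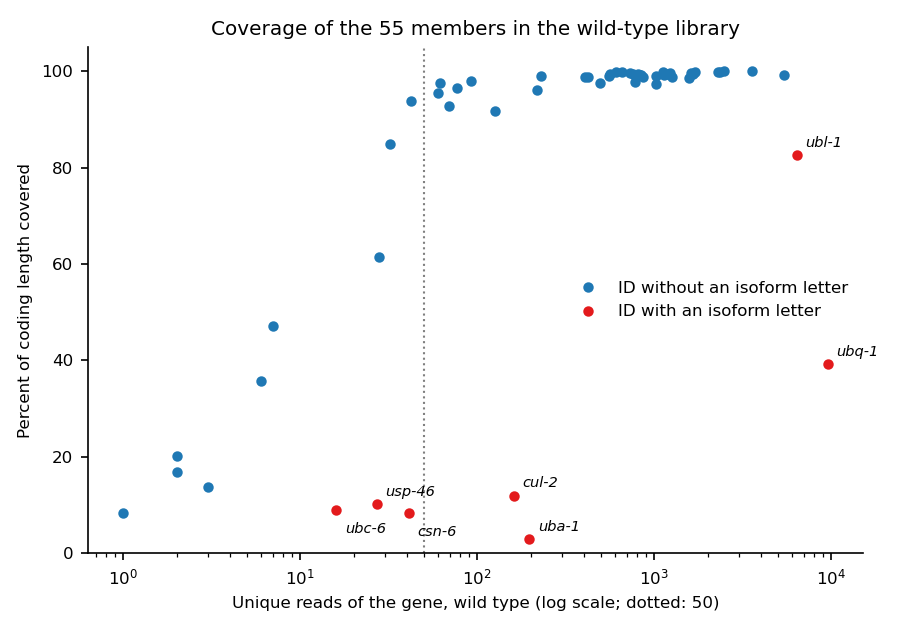
Percent of the coding length covered by reads in the wild type (y axis) against the unique reads of the gene (x axis, log scale) for the 55 genes, with IDs that carry an isoform letter in red and named. Genes without a letter rise to near full coverage above 50 reads, while uba-1, cul-2, csn-6, usp-46, ubc-6 and ubq-1 stay under 50%.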

How the data were processed

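Per the file headers, the authors deposited raw counts of uniquely mapped reads for each coding sequence ID. Beside them the authors deposited RPKM (matched from the counts with a largest relative error of 2.8e-08) and the percent of each listed length covered, per the file headers. Aligner, genome build and annotation were not given in the sources used here. Strand specificity is not stated either, and reads of overlapping genes cannot be split by strand. No coordinates or sequences are printed. Of 9430 IDs, 9383 matched a sequence name of the WBcel235 annotation, which gave the symbols, and IDs of 1 gene were summed. RPKM and coverage are those of the ID with the most reads. An unlisted ID was taken as 0 reads, an assumption that was not tested. CPM ratios have exact 95% Clopper-Pearson intervals, and log2 ratios use a prior of 0.5 reads. Reads need not be independent molecules, so intervals may be too narrow. The interval and calls were tested on simulated counts with counting error alone. That test holds no variation between worms or libraries, so it cannot show how the calls fare under it. Python 3.11.15, scipy 1.17.1 and edgeR 4.0.16 (TMM factors only) were used.

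The members and lists were chosen with earlier results of these data known. Of the lists, stam-1 was moved and bir-1 and tfg-1 were dropped after list medians were seen, because their roles did not match the list, and rnf-145, which had no reads, was left out. Values were named for members past a fold, the 3 highest and 3 lowest ratios and the 3 highest levels of each role, and up to 4 genes of a list. Other members are named to account for all 55.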

Additional observations from a re-analysis of the deposited data

How the results depend on the processing

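No paired analysis was possible because each genotype has 1 library. The direction of most values rests on the scaling. With the median log2 ratio of oogenic germline markers set to 0 (a shift of 0.86), the median of the 45 genes turned from -0.43 to 0.42, with 5 genes at least 2-fold higher, 15 at least 1.5-fold higher and 0 lower by 1.5-fold. With that of body tissue markers set to 0 (a shift of -1.25), it was -1.68, with 42 genes at least 2-fold and 43 at least 1.5-fold lower and 0 higher at either fold. The median was -0.34 with TMM factors, -0.38 with median-of-ratios factors and -0.41 with a prior of 5 reads. Relative to all genes it was -0.10 under all 4 scalings, which is fixed in advance because each scaling shifts every log2 ratio alike. With no filter on low counts the median was -0.41, or -0.42 relative to all genes, with 2 genes at least 2-fold lower (csn-6 and usp-46) and 4 at least 1.5-fold higher. With at least 200 reads over both libraries it was -0.48, or -0.074 relative to all genes, and 0 genes were higher at either fold. Counting 1 ID per gene, the deposited RPKM, genes listed in both libraries and a coverage minimum of 50% moved none of these counts by 1.5 times.

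With TMM factors ubl-1 turned from -0.075 to 0.016. On oogenic markers 44 of the 45 log2 ratios lay above 0, against 9 on library totals. For the 16 genes that turned and were past 1.5-fold on at least 1 of these scalings, the log2 ratio became 0.11 for csn-1, 0.24 for csn-2, 0.13 for csn-5, 0.12 for cul-1, 0.21 for skr-2, 0.61 for ubc-1, 0.090 for ubc-13, 0.78 for ubl-1, 0.66 for ubq-1, 0.75 for ubq-2, 0.60 for uev-1, 0.052 for usp-14, 0.027 for otub-3, 0.14 for usp-48, 0.23 for usp-39 and 0.60 for uba-5. On body tissue markers the log2 ratios of the 8 genes that turned became -1.17 for skr-1, -0.74 for skr-3, -0.23 for skr-4, -1.08 for skr-16, -1.13 for ubc-3, -1.14 for ubc-14, -1.104 for ubl-5 and -1.23 for otub-2. Relative to all genes, list medians that turned with no filter were -0.29 for E1, -0.28 for the E2 variant, -0.10 for ubiquitin genes, -0.11 for let-70, -0.14 for UFM1, -0.17 for ribosomal proteins and -0.61 for hypodermis, and the SKP1-related median was -0.24 with at least 200 reads. No filter moves the median of all genes to 0.01.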
